A study of Mus musculus with 8 samples.

Results

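Genes for the NF-kB transcription factor subunits, their inhibitors and closely tied regulators were followed in the hypothalamus of diabetic mice. The members were fixed by name, as Nfkb1, Nfkb2, Rela, Relb, Nfkbia, Nfkbie, Nfkbiz, Bcl3, Tnfaip3 and Ikbkb, and every probe carrying one of these symbols in the platform's probe table was taken. Of 25697 probes, 10 belonged to the list, and they stood for 9 of its 10 genes. Nfkb1 was not analysed here. Of the 10 probes, 9 passed the detection filter, 1 for each gene, those of Bcl3 and Nfkb2 through STZ arrays alone. The remaining probe, a further one for Nfkbie, was detected on 1 array.

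NF-kB is a dimer of Rel-family proteins that waits in the cytoplasm, held there by inhibitor proteins of the I-kappa-B family. Tumour necrosis factor, interleukin-1 and Toll-like receptors activate a kinase complex that marks the inhibitors for destruction, and the freed dimers enter the nucleus and switch on inflammatory genes. Several of the genes switched on encode brakes on the pathway, so their transcripts are widely read as markers of its recent activity. A further pair of family members, I-kappa-B-zeta (from Nfkbiz) and Bcl-3, act inside the nucleus as partners of p50 or p52 dimers. In the hypothalamus the pathway has been studied in microglia, astrocytes and the neurons that control feeding.

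RNA from hypothalamic blocks of male mice aged 12 to 15 weeks, of a strain given only as mixed, was measured on 8 Illumina bead arrays. Controls received saline (replicates 4 and 5). Diabetic mice received streptozotocin, a toxin of the insulin-producing beta cells, by repeated intraperitoneal injection (STZ, replicates 1, 2 and 3). The last group had the same diabetes together with a continuous leptin infusion, described for the series as central (STZ with leptin, replicates 6, 7 and 8). No label states that the arrays held RNA of separate animals, so a p-value here speaks only of the spread among these arrays. Whole tissue was used, so more cells of a type and more RNA per cell cannot be told apart.

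Some arrays stood apart. In its description STZ replicate 3 has the number 1, which STZ replicate 1 also has, and no saline array has that number. It was used as STZ, as both its title and its source name give it, with values below also without it. STZ replicate 2 held pituitary hormone transcripts far above all other arrays, with a summed signal of 76915 over 5 genes against 214.2 to 1073 elsewhere. STZ replicate 1 and the leptin arrays held little choroid plexus RNA, with a summed signal of 1588 to 5041 over 7 genes against 15054 to 31949 on the other arrays. Between 13608 and 14776 probes were detected per array. Of 14 hypothalamic markers with a probe, 11 were kept and were detected on all 8 arrays, while Sim1, Otp and Lepr were detected on none.

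The genes of I-kappa-B-alpha and A20 are classic targets of NF-kB itself, so the promoter sequences of the members are shown first. RefSeq promoter windows of 250 bases before to 50 bases after a transcript start (build GRCm38.p6) were held for 6 of the 10 members. No window was held for Nfkbiz, Relb, Nfkb1 or Ikbkb, so their promoters were not searched. Of the 6 members with a window, 5 contained at least 1 match to the 10-letter NF-kB consensus on either strand. Over all genes with a window, 5.14% had such a match, and over all windows 4.51%. Matches are printed in capitals, from 5′ to 3′ on the strand of the gene, which is minus for Bcl3, Nfkbia and Tnfaip3 and plus for Nfkbie and Nfkb2. The stretches lie at chr7:19822736-19823005 for Bcl3, chr17:45555545-45555644 for Nfkbie, chr12:55492648-55492757 for Nfkbia, chr10:19015411-19015560 for Tnfaip3 and chr19:46304577-46304746 for Nfkb2.
Bcl3: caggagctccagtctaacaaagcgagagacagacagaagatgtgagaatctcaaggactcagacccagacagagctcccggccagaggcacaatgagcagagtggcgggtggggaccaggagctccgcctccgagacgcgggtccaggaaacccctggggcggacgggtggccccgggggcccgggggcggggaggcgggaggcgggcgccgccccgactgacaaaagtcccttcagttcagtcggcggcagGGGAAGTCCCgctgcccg
Nfkbie: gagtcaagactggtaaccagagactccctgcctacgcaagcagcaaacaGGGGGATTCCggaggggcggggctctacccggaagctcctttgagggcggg
Nfkbia: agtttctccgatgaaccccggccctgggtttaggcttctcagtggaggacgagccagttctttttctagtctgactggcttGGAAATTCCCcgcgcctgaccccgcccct
Tnfaip3: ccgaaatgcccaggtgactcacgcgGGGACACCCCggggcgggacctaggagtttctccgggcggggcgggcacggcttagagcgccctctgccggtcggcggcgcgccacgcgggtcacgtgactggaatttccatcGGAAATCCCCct
Nfkb2: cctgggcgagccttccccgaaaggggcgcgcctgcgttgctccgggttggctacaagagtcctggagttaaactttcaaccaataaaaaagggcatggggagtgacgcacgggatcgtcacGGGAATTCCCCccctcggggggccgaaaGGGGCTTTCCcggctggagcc

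Counted from the transcript start, the single match lay at 3 to 12 in Bcl3, at -29 to -20 in Nfkbia and at -106 to -97 in Nfkbie. Tnfaip3 had matches on opposite strands of 1 of its 2 windows. Nfkb2 had matches in all 3 of its windows, and in the stretch shown the first run of capitals holds overlapping matches. The window of Rela held no match to these letters. The motif TTCNNNGAA, the core to which STAT proteins bind, was found in the window of Nfkb2 alone among the 6, against 9.55% of all genes. Bcl3 and Relb lie on chromosome 7 with 10 protein-coding genes between them, and Rela and Nfkb2 both lie on chromosome 19. A match of letters is a description of the sequence and shows no binding.

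In STZ against saline, Nfkbiz and Bcl3, which both encode nuclear I-kappa-B proteins, rose. Nfkbiz was 5.82-fold higher and Bcl3 at least 2.19-fold higher (n = 3 and 2). Nfkbie, Nfkbia and Tnfaip3 had higher means in STZ but did not pass the test across all probes, and neither did the subunits Nfkb2, Rela and Relb or the kinase Ikbkb. In all, 2 of 9 members rose and 0 fell in limma at an adjusted p of 0.05, against 4.34% of 10703 genes that rose and 0.271% that fell. Bcl3 and Nfkb2 entered these counts only because STZ arrays detected them, and without the detection filter the count called was also 2. At an unadjusted p of 0.05, 8 members were higher and 0 lower. The share of all genes at that level was not counted, here or in the comparisons below. For 8 of the 9 members every STZ array lay above both saline arrays, a pattern that 13.0% of all genes showed, and for 0 members below, a pattern of 19.1% of all genes. The count of 2 held without STZ replicate 2, was 1 (Nfkbiz) without STZ replicate 3 and 5 without STZ replicate 1. The median log2 difference was 1.19 over the 9 members and -0.08 over all genes.

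Nfkbiz encodes I-kappa-B-zeta, a nuclear coactivator that macrophages need to switch on a secondary set of inflammatory genes, Lcn2 and Il6 among them. Its normalized log2 signal was 6.32 and 6.60 in saline, 8.47, 9.41 and 9.13 in STZ, and 8.11, 8.11 and 8.84 in STZ with leptin. All STZ and leptin arrays lay well above both saline arrays, and only the STZ and leptin groups overlapped. The rise in STZ was 2.54 ± 0.31 log2 units (moderated standard error, adjusted p = 0.00146 in limma). It passed without any 1 array, with an adjusted p between 0.000696 and 0.0282, and was 2.34 without STZ replicate 2 and 2.48 without STZ replicate 3.

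Bcl3 encodes a nuclear I-kappa-B protein that turns p50 and p52 dimers into activators or repressors of particular genes. Its probe was detected on the 3 STZ arrays and on no other. The signal was 4.55 and 4.77 in saline, 5.72, 6.99 and 6.27 in STZ, and 5.10, 4.88 and 5.01 with leptin. The saline values are near background, so the rise is given as a lower bound of 2.19-fold, with the lowest signal of a detected probe on each array standing in for undetected values. The bound does not allow for the spread between arrays. The fitted difference was 1.67 ± 0.31 log2 units (adjusted p = 0.0159). The call was lost without STZ replicate 3 (adjusted p = 0.0624), saline replicate 4 (0.164) or saline replicate 5 (0.0946), and held without STZ replicate 2 (1.34, adjusted p = 0.0124).

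**Figure D1:**
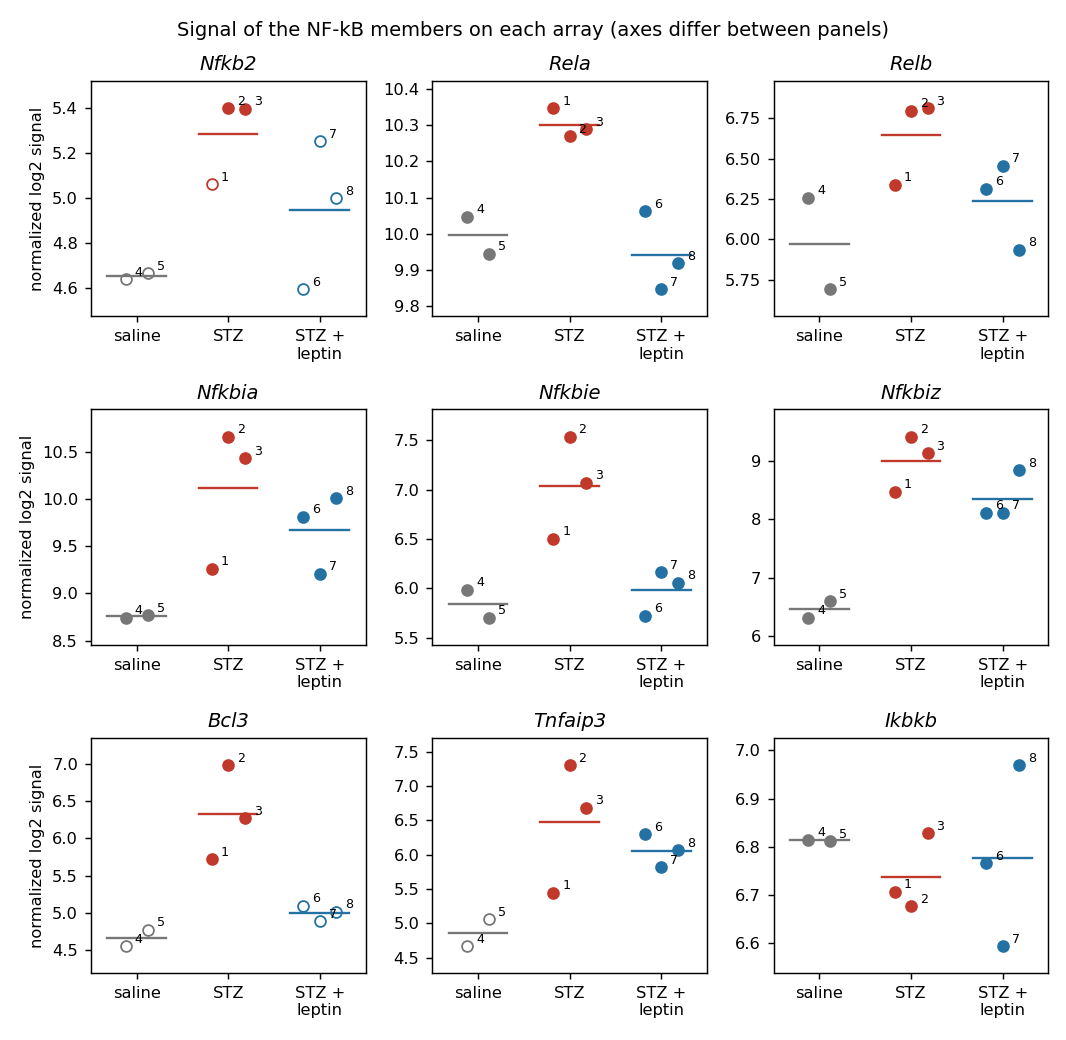
Normalized log2 signal of the 9 members (1 panel each, axes differ) on each array, with group means as lines, replicate numbers beside the points, and open points where the probe was not detected. Nfkbiz lies between 8.11 and 9.41 on all diabetic arrays, with and without leptin, against 6.32 and 6.60 in saline, whereas Bcl3 is detected on the STZ arrays alone.

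Nfkbia, Nfkbie and Tnfaip3 had higher signals on every STZ array than in saline, and STZ replicate 1 was the lowest of its group for each. Nfkbia encodes I-kappa-B-alpha, the main inhibitor and a rapid target of NF-kB. Its signal was 8.74 and 8.77 in saline, 9.26, 10.67 and 10.44 in STZ, and 9.81, 9.21 and 10.01 with leptin. The difference between STZ and saline was 1.37 ± 0.39 log2 units (adjusted p = 0.116 in limma), and 1.79 without STZ replicate 1 (adjusted p = 0.00458). The leptin arrays lay above saline, around STZ replicate 1 and below the other STZ arrays.

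Nfkbie encodes I-kappa-B-epsilon, an inhibitor of dimers that contain RelA or c-Rel. Its signal was 5.99 and 5.70 in saline, 6.50, 7.53 and 7.07 in STZ, and 5.72, 6.16 and 6.06 with leptin. The saline and leptin arrays overlapped, and the STZ arrays lay above both. The difference between STZ and saline was 1.19 ± 0.28 (adjusted p = 0.0509), just above the threshold, and its adjusted p was 0.00642 without STZ replicate 1 and between 0.0659 and 0.359 without any other single array. The further Nfkbie probe read 4.63 and 4.65 in saline, 4.74, 5.07 and 5.14 in STZ, and 4.57, 4.42 and 4.62 with leptin, near background, with the STZ arrays highest.

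Tnfaip3 encodes A20, a ubiquitin-editing enzyme that shuts off signalling to NF-kB. It was not detected in saline (4.67 and 5.06) and read 5.44, 7.31 and 6.69 in STZ and 6.30, 5.82 and 6.07 with leptin. STZ replicate 1 lay below all leptin arrays, and the saline arrays lay below all others. The difference between STZ and saline was at least 2.44-fold (1.62 ± 0.45 fitted, adjusted p = 0.102). Without STZ replicate 1 it was 2.13 fitted, with an adjusted p of 0.00208.

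The subunits differed less. Relb, the partner of p52 in the non-canonical branch, read 6.26 and 5.69 in saline, 6.34, 6.80 and 6.81 in STZ, and 6.31, 6.46 and 5.93 with leptin, a difference of 0.68 ± 0.24 between STZ and saline (adjusted p = 0.218). Nfkb2, which encodes the p100 precursor of p52, was detected only on STZ replicates 2 and 3. It read 4.64 and 4.67 in saline, 5.06, 5.40 and 5.40 in STZ, and 4.594, 5.251 and 4.998 with leptin (at least 1.07-fold higher in STZ than in saline, 0.63 ± 0.21 fitted, adjusted p = 0.177). For both genes the STZ arrays stood above saline, with saline replicate 4 and STZ replicate 1 close together for Relb.

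Rela encodes p65, the main activating subunit. It read 10.05 and 9.94 in saline, 10.35, 10.27 and 10.29 in STZ, and 10.06, 9.85 and 9.92 with leptin. The STZ arrays lay above all others within a narrow range, and the difference from saline was 0.31 ± 0.13 (adjusted p = 0.345, 95% interval 0.0011 to 0.61 before adjustment). Ikbkb encodes the kinase subunit IKK-beta, which marks the inhibitors for destruction. It read 6.82 and 6.81 in saline, 6.71, 6.68 and 6.83 in STZ, and 6.77, 6.59 and 6.97 with leptin. All 3 groups overlapped, and the difference of -0.08 ± 0.15 had a 95% interval of -0.42 to 0.27, with its sign turned to 0.06 under cyclic loess.

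With leptin, transcripts of Bcl3 and Nfkbie were lower than in STZ without it. Bcl3 fell at least 2.18-fold and Nfkbie 2.08-fold (n = 3 and 3). The other members did not pass, although 8 of the 9 had a lower mean with leptin and the sign of Ikbkb turned with the normalization. In limma 2 of 9 members fell and 0 rose, against 3.70% and 2.05% of all genes, with 4 lower and 0 higher at an unadjusted p of 0.05. Without the detection filter, which Bcl3 and Nfkb2 passed through STZ arrays alone, the count that fell was 1 (Bcl3). The groups did not overlap for Bcl3, Nfkbie and Rela, each below STZ, as for 11.8% of all genes, and for 0 members lay above it, as for 12.0%. The count of 2 was 1 without STZ replicate 2, 0 without STZ replicate 3 and 2 without STZ replicate 1. The median log2 difference was -0.42 over the members and 0.03 over all genes.

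Bcl3 fell by 1.33 ± 0.28 log2 units in the fit (adjusted p = 0.0255), and no leptin array detected it. Nfkbie fell by 1.05 ± 0.25 (adjusted p = 0.0445). Both calls lie near the threshold. Bcl3 lost it without STZ replicate 3 (adjusted p = 0.0868) or any 1 leptin array (0.0598 to 0.0854). Nfkbie lost it without any 1 array other than STZ replicate 1 (0.0742 to 0.140). In the authors' processed table the adjusted p was 0.0583 for Bcl3 and 0.0592 for Nfkbie.

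The remaining inhibitors did not pass. Nfkbiz differed by -0.65 ± 0.28 (adjusted p = 0.242), Nfkbia by -0.44 ± 0.35 (0.549) and Tnfaip3 by -0.42 ± 0.40 (0.628). The 95% interval for Tnfaip3 ran from -1.33 to 0.49. Without STZ replicate 1 the differences were -0.92 for Nfkbiz, -0.87 for Nfkbia and -0.94 for Tnfaip3 (adjusted p = 0.0652, 0.0641 and 0.0522). Without STZ replicate 2 the difference of Tnfaip3 was -0.0072. Rela differed by -0.36 ± 0.12 (adjusted p = 0.137), Relb by -0.41 ± 0.21 (0.333), Nfkb2 by -0.34 ± 0.18 (0.361) and Ikbkb by 0.04 ± 0.14 (0.915). Nfkb2 was undetected on all leptin arrays. Its means differed at least 1.06-fold, and the 95% interval of the fitted difference, -0.76 to 0.08, included no change.

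Against saline, Nfkbiz remained higher in the leptin-infused diabetic mice. It was 3.71-fold higher (1.89 ± 0.31 log2 units, adjusted p = 0.0146 in limma, n = 3 and 2), with all leptin arrays above both saline arrays. It was the 1 member that passed, against 1.70% of all genes that were higher, and 0 members were lower, against 0.402% (3 higher and 0 lower at an unadjusted p of 0.05). The call was lost without saline replicate 4 or 5 (adjusted p = 0.179 and 0.0966).

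Tnfaip3 was also above saline on every leptin array, at least 1.82-fold (1.20 ± 0.45 fitted, adjusted p = 0.322). It passed when only these groups were fitted (adjusted p = 0.0422), with array weights (0.0411) and without STZ replicate 1 (0.0430). Nfkbia differed by 0.92 ± 0.39 (adjusted p = 0.397), again with no overlap. Nfkbie differed by 0.13 ± 0.28 (adjusted p = 0.899) and Bcl3, undetected in both groups, by 0.34 ± 0.31 (0.753). Relb, Rela and Ikbkb differed by 0.26, -0.05 and -0.04, and Nfkb2, also undetected in both groups, by 0.30. The groups did not overlap for 4 members (Nfkbiz, Tnfaip3, Nfkbia and Bcl3), all higher with leptin, as for 14.7% of all genes, and 0 were lower throughout, as for 19.8%. For Bcl3 that order is one of undetected signals.

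Set side by side, the fitted differences from saline were 2.54 in STZ and 1.89 with leptin for Nfkbiz, 1.62 and 1.20 for Tnfaip3, and 1.37 and 0.92 for Nfkbia. They were 1.67 and 0.34 for Bcl3 and 1.19 and 0.13 for Nfkbie. The comparisons share arrays, and whether the genes differ in their response to leptin was not tested.

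**Figure D2:**
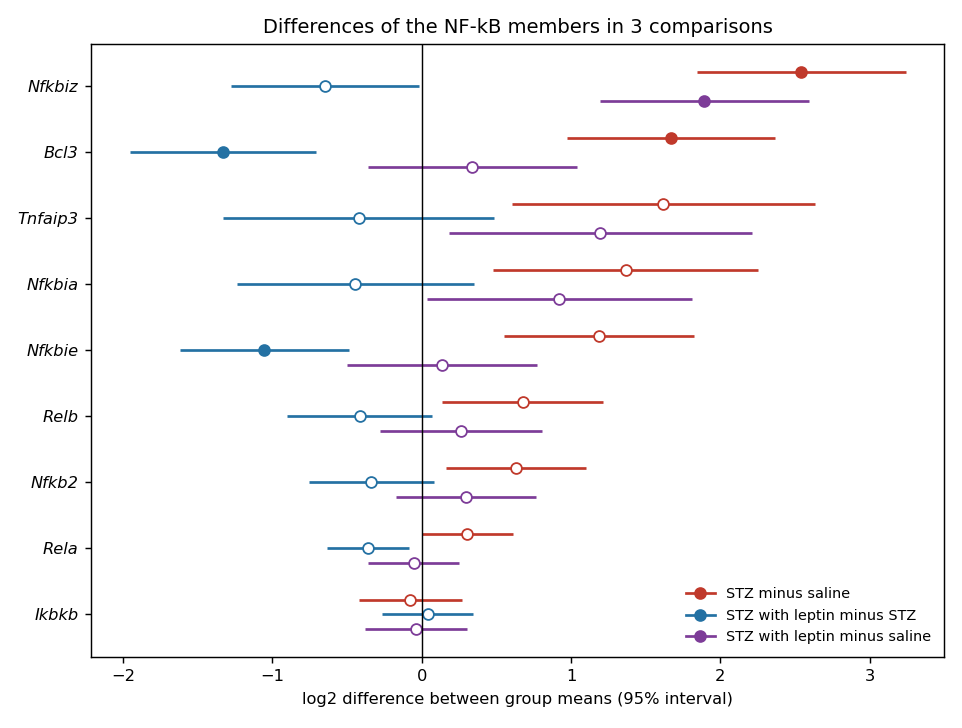
Log2 differences between group means (points) with 95% intervals (lines) for the 9 members for STZ against saline, leptin against STZ, and leptin against saline, with filled points where limma's adjusted p was under 0.05. Nfkbiz lies at 2.54 and 1.89 above saline without and with leptin, while Bcl3 and Nfkbie have filled points in the comparison of leptin with STZ.

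Genes upstream and downstream of NF-kB were taken from 5 lists of 98 genes, of which 74 were kept. The lists were written with earlier results of these data known, so their counts are a description. In STZ 24 rose and 0 fell in limma, where 4.34% and 0.271% of all genes did. At an unadjusted p of 0.05, 32 were higher and 1 lower, and the median difference was 0.35. The share of all genes at that level was not counted. For 37 genes every STZ array lay above saline and for 3 below, as for 13.0% and 19.1% of all genes. Without the detection filter 22 rose and 0 fell. Il1a and Tlr4 passed that filter through STZ arrays alone, and Nlrc5 was detected on 4 arrays, 3 of them STZ. Of 7 ligands 5 rose. The interleukins Il1b and Il1a rose at least 26.8-fold and 2.51-fold, Tnf rose at least 3.34-fold, and the B cell survival factor Tnfsf13b rose 3.18-fold (1.67 ± 0.18). Of 10 receptors 3 rose. Tlr2, which senses bacterial lipopeptides, rose by 3.52 ± 0.25, Cd40, which feeds the non-canonical branch, rose by 1.74 ± 0.30, and the endotoxin receptor Tlr4 rose at least 1.48-fold.

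Of 22 adaptors and kinases 5 rose. Among them Myd88, the adaptor of Toll-like and interleukin-1 receptors, rose by 1.95 ± 0.20, Irak3, a brake on that adaptor's signalling, rose by 2.43 ± 0.27, the kinase Map3k8 rose by 1.85 ± 0.26 and Traf1 rose by 1.40 ± 0.22. Of 16 further subunits and brakes, Nlrc5 alone passed, at least 3.98-fold higher. Nfkbid, which encodes a further nuclear I-kappa-B protein and is named here after its values were seen, differed by 0.93 ± 0.29 (adjusted p = 0.155). Nlrc5 is best known as the activator of MHC class I genes. Rel, the gene of c-Rel, was detected on no array.

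Of 19 target genes 10 rose, with a median of 1.35. Lcn2, a secreted iron-trap protein, rose at least 345.0-fold, the chemokine Cxcl10 at least 68.5-fold and Tnfaip2 at least 13.4-fold, and the adhesion molecule Icam1 rose by 3.38 ± 0.36. Cxcl10 also answers to interferon. Il6, also on the list of target genes, was detected on 1 array and was not kept. Of the 24 calls, 11 held without any 1 array, and the count was 15 without STZ replicate 3 and 12 without either saline array. Those of Il1b, Tnf, Cd40, Tlr4, Map3k8 and Traf1 were lost without at least 1 saline array, with the highest adjusted p at 0.249 for Tlr4.

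With leptin 12 of the 74 pathway genes fell and 1 rose against STZ, where 3.70% and 2.05% of all genes did. At an unadjusted p of 0.05, 36 were lower and 3 higher, and the median was -0.44. The share of all genes at that level was not counted. The groups did not overlap for 29 genes that were lower and 5 that were higher, as for 11.8% and 12.0% of all genes. Without the detection filter, which Il1a passed through STZ arrays alone, 11 fell and 1 rose. Of the ligands Il1a fell at least 2.49-fold and Tnfsf13b fell by 0.86 ± 0.16. Of the receptors Cd40 fell by 1.79 ± 0.27 and Tlr2 fell by 1.45 ± 0.22. Myd88 fell by 1.26 ± 0.17, Traf1 fell by 1.13 ± 0.20 and Nlrc5 fell by 2.15 ± 0.22, with detection on 1 of 3 leptin arrays. Of the target genes 5 fell, among them Cxcl10, which fell by 3.10 ± 0.37, Tnfaip2, which fell by 2.61 ± 0.35, Icam1, which fell by 1.84 ± 0.32, and Vcam1, which fell by 1.14 ± 0.19. Of these 13 calls, 10 held without any 1 array, the count was 31 without STZ replicate 1, and those of Tnfsf13b and Icam1 were lost without STZ replicate 3 (adjusted p = 0.0677 and 0.0559).

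The 1 gene that rose with leptin was Nfkbib, which encodes I-kappa-B-beta, a close relative of I-kappa-B-alpha. Its probe read 6.10 and 5.89 in saline, 6.17, 5.86 and 6.23 in STZ, and 7.90, 7.34 and 7.94 with leptin, a rise of 1.65 ± 0.19 against STZ (adjusted p = 0.00141). The saline and STZ arrays overlapped, and the leptin arrays lay above both. Such a step, with STZ within 0.5 log2 units of saline and calls of 1 sign in both leptin comparisons, was shown by 151 probes.

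Against saline 6 of the 74 genes were higher with leptin and 0 were lower, where 1.70% and 0.402% of all genes were. At an unadjusted p of 0.05, 17 were higher and 5 lower, and the share of all genes at that level was not counted. The groups did not overlap for 26 genes that were higher and 9 that were lower, as for 14.7% and 19.8% of all genes. The 6 called genes were Tlr2 by 2.07 ± 0.25, Irak3 by 1.55 ± 0.27, Nfkbib by 1.73 ± 0.21, and the target genes Lcn2, Ccl5 and Cxcl10, at least 72.8-fold, 16.6-fold and 8.01-fold. Of these, 2 calls (Lcn2 and Cxcl10) held without any 1 array. The call of Irak3 was lost without saline replicate 4 or 5 or leptin replicate 6 or 8 (highest adjusted p = 0.204) and that of Ccl5 without STZ replicate 3, either saline array or leptin replicate 7 (0.220).

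**Figure D3:**
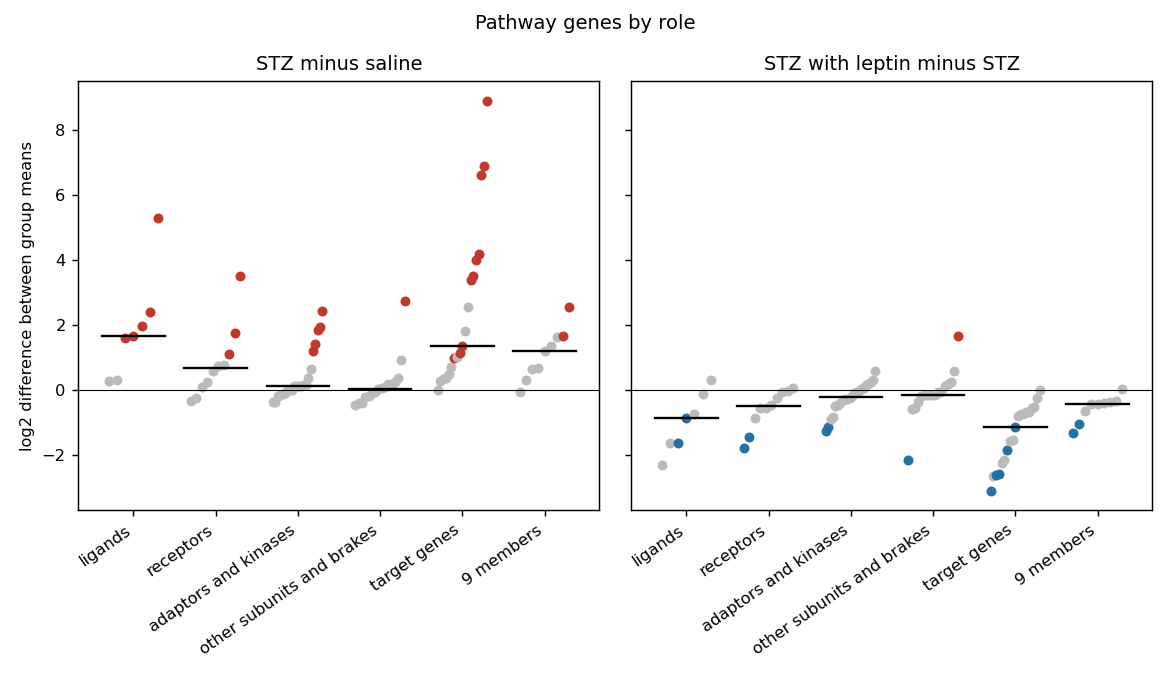
Log2 differences of the 74 pathway genes by role and of the 9 members in STZ minus saline (left) and STZ with leptin minus STZ (right), 1 point a gene, red where it was called higher, blue where lower and grey where it did not pass, with list medians as black lines. Target genes have a median of 1.35 on the left and -1.14 on the right.

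Several markers of microglia and macrophages and 1 leukocyte marker also passed as higher in STZ, and both lists had higher medians there. Of all genes, 4.34% rose in STZ. With leptin 3.70% fell and 2.05% rose against STZ, and 1.70% were higher and 0.402% lower than in saline. Of 12 kept markers of microglia and macrophages 7 rose in STZ (median 1.76), 3 fell with leptin against STZ (median -0.57) and 5 were higher with leptin than in saline (median 1.05). Their summed signal was 3093 to 3497 in saline, 12957 to 18507 in STZ and 10552 to 11870 with leptin. Of 8 kept leukocyte markers Cd3e alone passed in STZ (median 1.47), and 0 passed in either leptin comparison. For 7 of the 8 every STZ array lay above both saline arrays, as for 13.0% of all genes. On each saline array 1 of the 8 leukocyte markers was detected. Their summed signal was 220.3 to 245.9 in saline, 375.3 to 6185 in STZ and 358.5 to 464.4 with leptin, and Cd4, Cd8a, Ms4a1, Ngp and Mpo were detected on no array. Of 9 astrocyte markers Gfap rose in STZ, and of 9 endothelial markers 0 passed in limma in STZ against saline (1 at an unadjusted p of 0.05). With leptin against STZ, 4 of 11 hypothalamic markers rose (Gal, Cartpt, Hcrt and Pmch, by 1.41, 1.28, 1.20 and 0.88), the neuronal marker Map2 rose by 0.54 and the astrocyte marker S100b rose by 0.89, while Gfap fell by 1.32 and the endothelial marker Slco1c1 fell by 1.12. Slco1c1 was also lower with leptin than in saline (-1.33). The part of these cells in the values of the members was not tested.

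Within the STZ group, replicate 1 was the lowest array for 7 of the 9 members, and replicate 2 the highest for 6. The median shift of the members from the saline mean was 0.51, 1.69 and 1.22 log2 units on STZ replicates 1, 2 and 3, and 0.34, 0.45 and 0.35 on the leptin arrays. Replicate 1 was also the lowest STZ array for the microglial list (1.46, 2.00 and 2.06), the leukocyte list (0.61, 1.45 and 2.15), the pituitary list (-1.32, 5.75 and -0.34) and the choroid plexus list (-2.16, 0.54 and -0.02). The leptin arrays lay between -2.63 and -2.12 on the choroid plexus list, and that list's part in the members' values was not tested.

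**Figure D4:**
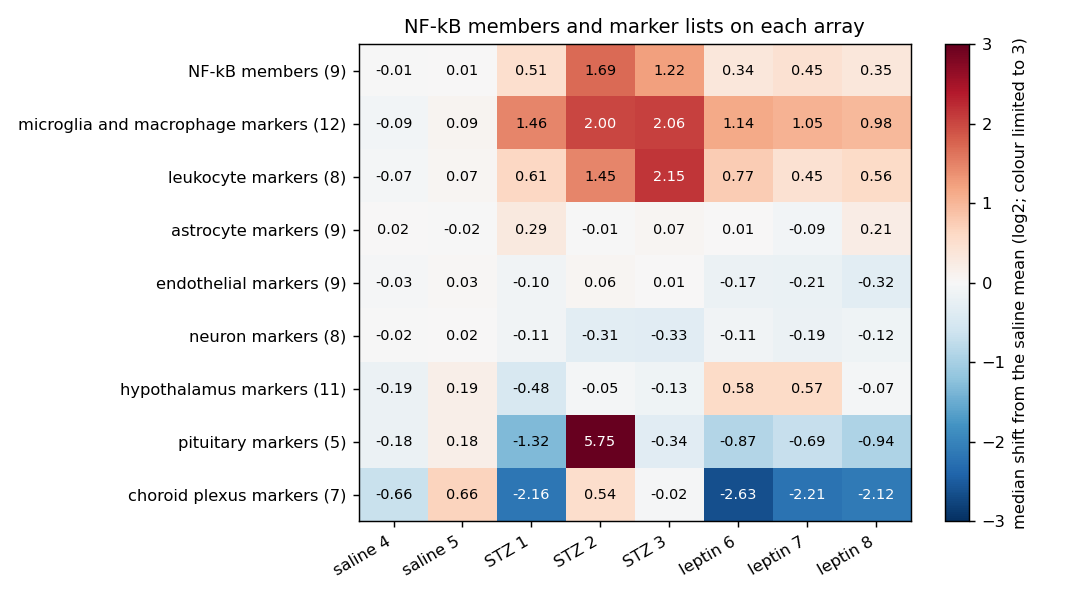
Median shift of the 9 members and of 8 marker lists from the saline mean on each array, in log2 units (numbers in cells, colour limited to 3). The members and the microglial and leukocyte lists are higher on all diabetic arrays than in saline, and the pituitary list stands at 5.75 on STZ replicate 2.

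The genes whose signals ran most like those of the called members were found among 10694 other genes over the 8 arrays, as a description, since the arrays fall into 3 groups. For Nfkbiz they were Ms4a6d, Irak3 and Gpr18 (Pearson r of 0.985, 0.982 and 0.981). For Bcl3 they were Ubd, Ccdc80 and Nuak2 (0.994, 0.993 and 0.993), where Bcl3 itself was detected on the 3 STZ arrays alone and was near background elsewhere. For Nfkbie they were Osm, Chil3 and Clec4e (0.984, 0.974 and 0.974).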

How the data were processed

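Per the file headers, the deposited raw table pairs a linear probe intensity with its detection p-value for every array. The authors' processed table, used as an alternative, holds log2 values, with 1 shared distribution in all columns (median 6.90). The steps that made it are not given in the sources used here.

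Intensities were corrected and normalized with neqc of limma 3.58.1 (R 4.3.3), with negative controls inferred from the detection p-values, an offset of 16, quantile normalization and log2. Probes detected (p-value under 0.05) on 2 or more arrays were kept, 15494 in all. The probe table gave 1 symbol to 23978 probes and none to 1719, and symbols were updated by Entrez identifier. For each of 10703 genes the kept probe with the highest mean signal was used. Group means over all 8 arrays were estimated in a single lmFit model and moderated by eBayes, with residual degrees of freedom of 5 and prior ones of 3.93, and Benjamini-Hochberg adjustment ran over all kept probes. Errors are moderated standard errors, and the number of arrays limits the precision. The fit was run on simulated data with independent normal noise of its own estimated variances, which cannot speak of array effects or of signals near background. Where no array of the dimmer group detected a probe, its values were raised to the lowest normalized signal that any detected probe had on that array, and the fold is given as at least that. Such a fold allows for undetected values and not for the spread between arrays.

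The members and gene lists were chosen with earlier results of these data known. Named pathway genes are at most 4 called genes of a list and comparison, by lowest p, and genes that complete a count. All members' promoter windows were searched, although the written rule covered only called members. Alternatives changed the input table, background correction, normalization, filter, weights, arrays fitted, block and probe per gene.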

Additional observations from a re-analysis of the deposited data

How the results depend on the processing

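Of 1071 values recomputed for single genes, 979 kept their direction and their side of the threshold, 68 lost a call, 16 gained one and 8 turned sign. These values took in uncalled members and pathway genes picked by lowest p. In leptin minus STZ the call of Nfkbie held in 1 of 8 fits with 1 array left out and 5 of 10 other settings. That of Bcl3 held in 4 of 8 and 6 of 9. The 8 turned signs belong to uncalled differences. Ikbkb turned under cyclic loess in STZ minus saline (0.060), leptin minus STZ (-0.013) and leptin minus saline (0.048), and with array weights in leptin minus STZ (-0.037). With 1 array left out, its leptin differences ranged from -0.057 to 0.13 against STZ and from -0.13 to 0.054 against saline, Relb ranged from -0.023 to 0.54 and Nfkbie from -0.0077 to 0.28, both against saline.

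The count of members called was 2, 2 and 1 in STZ minus saline, leptin minus STZ and leptin minus saline. With 1 array left out it ranged from 1 to 5, 0 to 2 and 0 to 2. In STZ minus saline it was 5 without STZ replicate 1 and 1 without STZ replicate 3 or either saline array. In leptin minus STZ it was 0 without STZ replicate 3 or any 1 leptin array and 1 without STZ replicate 2 or either saline array. In leptin minus saline it was 2 without STZ replicate 1 and 0 without either saline array. With a saline array left out, the lone array was assumed to vary like the other groups. Array weights gave 7 members in STZ minus saline, 3 in leptin minus STZ and 2 in leptin minus saline. The highest weight fell on STZ replicate 3 (2.49) and the lowest on STZ replicate 1 (0.28). Among probes detected under 0.01 on all arrays, which left out Nfkb2, Bcl3 and Tnfaip3, 1 member was called in STZ minus saline and 1 in leptin minus STZ. In leptin minus STZ the authors' processed table and no background correction gave 0 each, and cyclic loess, no detection filter and only the groups compared gave 1 each. In leptin minus saline, only the groups compared gave 2.

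Of the pathway genes 24, 13 and 6 were called, with ranges of 12 to 31, 10 to 31 and 3 to 12 with 1 array left out. Array weights gave 32, 33 and 13, and the stricter detection filter, which tested 41 of 74 genes, gave 9, 8 and 3. The counts were 15 without STZ replicate 3 and 12 without either saline array in STZ minus saline, 31 without STZ replicate 1 in leptin minus STZ, and in leptin minus saline 12 without STZ replicate 1 and 3 without either saline array.

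The numbers in the descriptions were tried as a replicate block, although they do not pair the arrays: deviations of same-numbered arrays from their group means correlated between -0.22 and 0.09. With the block, 2, 1 and 1 members and 17, 13 and 5 pathway genes were called. Bcl3 then had an adjusted p of 0.0508 in STZ minus saline and 0.0506 in leptin minus STZ, and Nfkbie had 0.0336 in STZ minus saline. Saline levels of Bcl3, Tnfaip3 and Nfkb2 were not above background, so their fitted differences rest on undetected signals. The folds given as at least are bounds with regard to background only, and the spread between arrays can reach below them.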
